A study of Homo sapiens with 6 samples.

Results

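ELAVL2, CHGB, SYT1, NCAM1, BEX5 and SOX2 are 6 genes known from neurons, neuroendocrine cells or neural progenitors, and they are described here across 6 microarrays of HEK293 cells, a human embryonic kidney line. The genes were taken by name, with every probe set in the deposited table that the platform annotation gives to 1 of these symbols. This came to 6 probe sets, 1 for each gene, out of 13008 in the table and 11584 genes. The table holds more than 1 probe set for only 130 genes. Any probe sets of the array left out of the table were not read. Agreement between probe sets could therefore not be checked for the 6 genes. The 6 names were chosen with the knockdown result of these arrays known, so their knockdown values are given below as a description, without a test. All cells were HEK293 T-REx Flp-In cells that carry a doxycycline-inducible FLAG/HA-tagged LIN28B. The 3 groups, with 2 arrays each, were cells transfected with siRNA against LIN28B and not induced, mock-transfected cells with the transgene induced, and mock-transfected cells not induced. For crosslinked cells the labels state induction with 250 ng/ml doxycycline over 15 to 20 h, and they give no time for the array samples. A control siRNA is not among the arrays, so transfection of siRNA and loss of LIN28B cannot be told apart. The labels do not say whether replicates were separate cultures, so p-values cover only how far these arrays vary, and that variation may be technical. In such bulk RNA, fewer cells that express a gene and less RNA per cell cannot be told apart.

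LIN28B is an RNA-binding protein that holds back maturation of the let-7 microRNAs and binds many mRNAs. HEK293 cells express a number of genes better known from neurons, and they have been compared with cells of the neural lineage and of the adrenal region for that reason. ELAVL2 is a neuronal protein of the Hu family, which binds AU-rich elements of mRNAs. CHGB is a granin, a cargo protein of dense-core secretory granules, and SYT1 is the calcium sensor for fusion of synaptic vesicles and granules. NCAM1 is an adhesion molecule of the immunoglobulin superfamily that can carry polysialic acid. BEX5 belongs to the brain-expressed X-linked family of small proteins, and SOX2 is a transcription factor that keeps neural progenitors and pluripotent cells in an undifferentiated state.

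The values are the authors' deposited log2 expression values per probe set, so that a difference of 1 stands for a 2-fold change. LIN28B, the target of the siRNA, read 7.51 and 7.53 on the siRNA arrays, 10.15 and 10.11 on the induced arrays and 10.02 and 9.85 on the arrays not induced. It fell in siRNA cells, which held 18.7% of the level in mock cells not induced (log2 difference -2.42, SE 0.078, limma adjusted p = 5.02e-07). Array medians lay between 7.126 and 7.177 over the 6 arrays, and no 2 arrays held the same values. All but 1 of the 13008 probe sets lay above 5 on at least 2 arrays, so a gene low everywhere is not analysed here. Of other genes often used to describe HEK293 cells, VIM, NEFL, KRT18 and KRT8 were in the table, with values from 12.38 to 12.65, from 9.92 to 10.63, from 9.94 to 10.03 and from 7.71 to 8.25, while NEFM and PAX2 were not analysed here.

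ELAVL2, CHGB, SYT1 and BEX5 read higher on both siRNA arrays than on any of the 4 mock arrays, NCAM1 read lower, and SOX2 overlapped. In the whole table, 27.1% of genes lay above all mock arrays on both siRNA arrays and 26.0% lay below, 53.1% in all. By limma, 28.0% of genes were called against mock cells not induced, 13.5% higher, and 28.4% against induced mock cells, 14.0% higher. Nothing is read from the count among 6 genes that were chosen on this contrast. ELAVL2 had 8.79 and 8.57 in siRNA cells, 7.56 and 7.21 in induced mock cells, and 7.45 and 7.36 in mock cells not induced. The lower siRNA array lay 1.01 above the highest mock array. The siRNA mean exceeded that of cells not induced by 1.28, a 2.42-fold difference, and that of induced cells by 1.30. Without either siRNA array the first difference was 1.17 or 1.39.

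The pair of genes of regulated secretion read higher in siRNA cells from a low starting level. CHGB had 6.39 and 6.11 in siRNA cells, 5.26 and 5.60 in induced mock cells, and 5.26 and 5.28 in mock cells not induced. Its siRNA mean was 0.98 above the cells not induced, a 1.97-fold difference, and 0.82 above the induced cells. One induced array stood apart from the other 3 mock arrays, toward the siRNA values. SYT1 had 5.86 and 5.89 in siRNA cells, 5.32 and 5.46 in induced mock cells, and 5.33 and 4.93 in mock cells not induced. The difference from cells not induced was 0.75, or 1.68-fold, against 0.48, or 1.40-fold, from induced cells. The first of these depends on the low array of the cells not induced: it was 0.55 without that array and 0.94 without the other. The lower siRNA array lay 0.40 above the highest mock array, the smallest such gap among the 4 genes that read higher.

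NCAM1 differed from the others in direction, and its 4 mock arrays lay closest together among the 6 genes. Within single groups this did not hold throughout: the SD was 0.020 for SYT1 in siRNA cells and 0.006 for SOX2 in induced mock cells. It had 6.57 and 6.60 in siRNA cells, 7.69 and 7.72 in induced mock cells, and 7.72 and 7.71 in mock cells not induced. The SDs within the groups were 0.026, 0.019 and 0.007 (n = 2 each), and the siRNA mean differed from that of cells not induced by -1.13, a 2.19-fold lower level, and from that of induced cells by -1.12. The 4 mock arrays lay within 0.030 of each other, and the higher siRNA array was 1.09 below the lowest of them.

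BEX5 had the widest spread within the mock groups of the 6 genes. It had 6.07 and 5.86 in siRNA cells, 4.54 and 4.95 in induced mock cells, and 4.03 and 4.64 in mock cells not induced. Its difference was 1.63, or 3.09-fold, from cells not induced and 1.22, or 2.33-fold, from induced cells. The first was 1.32 without not-induced array 1 and 1.93 without not-induced array 2. All 4 mock arrays read BEX5 under 5 and both siRNA arrays above it, so this gene is in a table of probe sets above 5 only through the siRNA arrays and had to differ. Of the 11584 genes, 101 were in that position.

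SOX2 showed no separation. It had 7.38 and 7.85 in siRNA cells, 7.54 and 7.54 in induced mock cells, and 7.46 and 7.43 in mock cells not induced. The siRNA arrays fell on either side of the mock arrays, and the spread between them (SD 0.34, n = 2) was larger than the mean difference of 0.17 from cells not induced or 0.07 from induced cells. Without siRNA replicate 1 the first difference was 0.41, and without siRNA replicate 2 it was -0.07, so the direction rests on which array is kept.

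**Figure D1:**
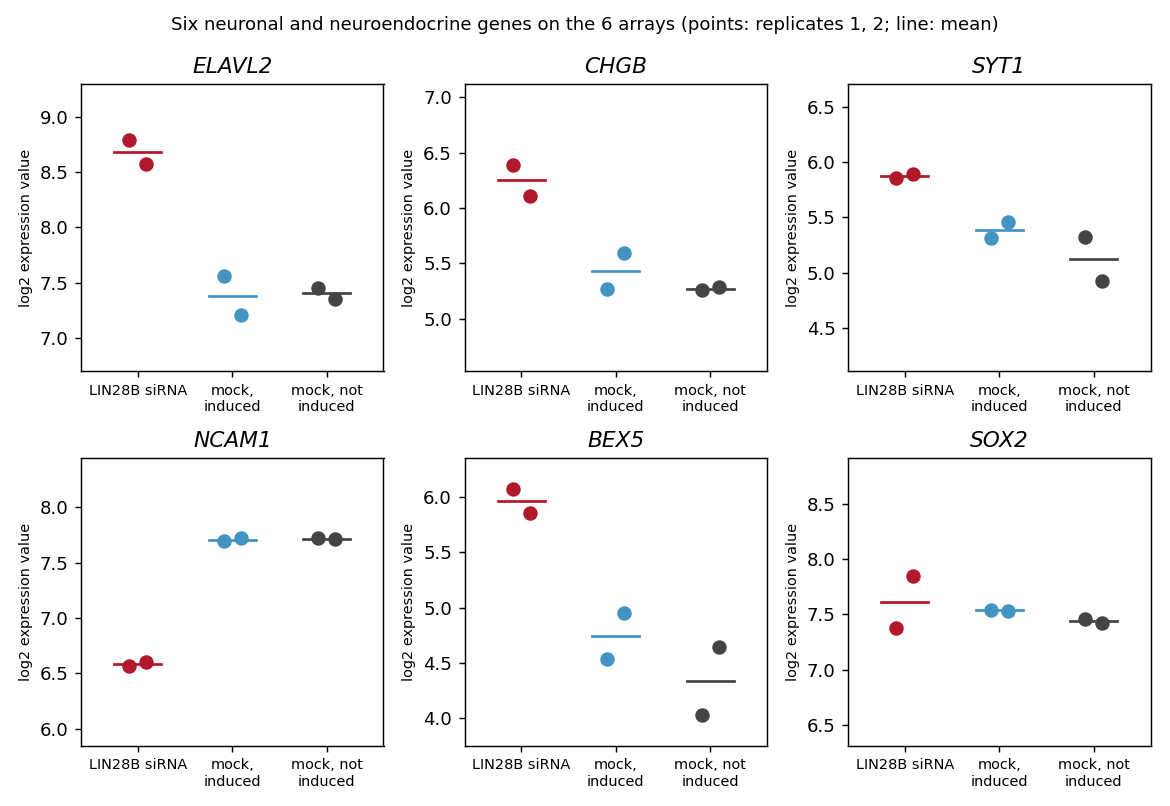
Log2 expression value of each gene on the 6 arrays, with points for replicates 1 and 2, a line for the group mean, and the same span of 2.6 log2 units on each vertical axis. Both siRNA arrays lie above the mock arrays for ELAVL2, CHGB, SYT1 and BEX5 and below them for NCAM1, while the SOX2 arrays of siRNA cells, at 7.38 and 7.85, enclose the mock values.

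The comparison of induced with not induced mock cells was not itself used to choose these genes. It shares its mock arrays with the knockdown contrasts on which they were chosen, so it is not independent of that choice. Each gene was tested here with limma, adjusted over all 11584 genes. LIN28B itself differed by 0.19 on its probe set (limma adjusted p = 0.999) and did not pass, so the arrays show no called rise of the induced gene, and whether this probe set reads the transgene is not known. None of the 6 passed, and none of the genes in the table did: limma called 0.0% in this comparison, while 344 genes had an unadjusted p under 0.05. ELAVL2 and NCAM1 differed least, by -0.02 (95% interval -0.32 to 0.27) and -0.01 (-0.23 to 0.21). The SOX2 difference was 0.10 (-0.22 to 0.42) and the CHGB difference 0.16 (-0.22 to 0.54). BEX5 and SYT1 had the largest differences, 0.41 (-0.13 to 0.94) and 0.26 (-0.13 to 0.66), with limma adjusted p = 0.999 for all 6 genes. The BEX5 and SYT1 arrays of induced and not induced cells overlapped, with the lower induced BEX5 array, at 4.54, under the higher array not induced, at 4.64. Without not-induced array 1 the BEX5 difference was 0.10, and without not-induced array 2 it was 0.71. The SYT1 difference was 0.46 without not-induced array 1 and 0.06 without not-induced array 2.

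**Figure D2:**
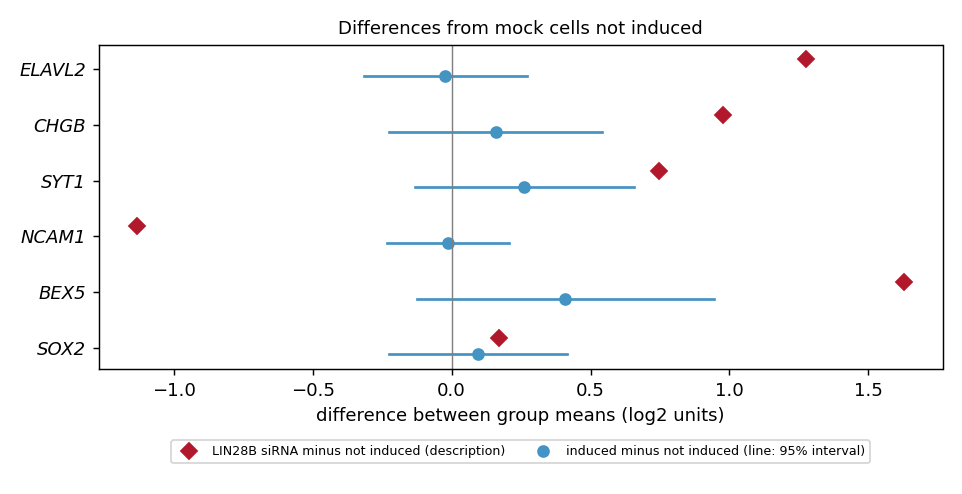
Difference between group means in log2 units for each gene, with red diamonds for siRNA minus mock not induced (a description, without error) and blue points with 95% limma intervals for induced minus mock not induced. All 6 blue intervals include 0, and the diamonds run from -1.13 for NCAM1 to 1.63 for BEX5.

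RefSeq windows on GRCh38.p14, from 250 bases before to 50 bases after a start site, were held for 4 of the 6 genes, with 6 for ELAVL2, 2 for BEX5 and 1 each for SYT1 and SOX2. CHGB and NCAM1 had none in the table. Which start site these cells use was not measured, and the window farthest upstream is printed for each gene. They are shown as the windows held for these genes, and since the genes were chosen on their knockdown values, the motif counts are a description of the sequences alone. Capitals mark CCAAT on either strand, a motif bound by the NF-Y factor.
ELAVL2, chr9:23826191-23826490, minus strand: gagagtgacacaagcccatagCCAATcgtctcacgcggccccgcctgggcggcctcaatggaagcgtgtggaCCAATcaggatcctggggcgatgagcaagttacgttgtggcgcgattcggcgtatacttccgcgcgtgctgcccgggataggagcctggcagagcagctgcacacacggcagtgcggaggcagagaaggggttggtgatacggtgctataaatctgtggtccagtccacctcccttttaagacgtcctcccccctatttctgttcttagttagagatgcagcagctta
SYT1, chr12:78864524-78864823, plus strand: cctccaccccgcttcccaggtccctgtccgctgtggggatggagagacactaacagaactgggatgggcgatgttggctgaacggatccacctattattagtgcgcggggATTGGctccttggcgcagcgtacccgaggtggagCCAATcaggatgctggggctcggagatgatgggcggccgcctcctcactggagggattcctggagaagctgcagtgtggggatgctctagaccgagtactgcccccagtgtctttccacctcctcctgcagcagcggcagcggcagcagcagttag
BEX5, chrX:102155928-102156227, minus strand: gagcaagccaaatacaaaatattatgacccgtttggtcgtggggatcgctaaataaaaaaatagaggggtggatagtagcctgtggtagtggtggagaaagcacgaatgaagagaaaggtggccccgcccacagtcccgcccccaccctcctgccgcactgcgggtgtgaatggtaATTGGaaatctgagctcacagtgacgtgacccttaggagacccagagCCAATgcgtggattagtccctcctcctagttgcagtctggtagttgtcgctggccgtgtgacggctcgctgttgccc
SOX2, chr3:181711675-181711974, plus strand: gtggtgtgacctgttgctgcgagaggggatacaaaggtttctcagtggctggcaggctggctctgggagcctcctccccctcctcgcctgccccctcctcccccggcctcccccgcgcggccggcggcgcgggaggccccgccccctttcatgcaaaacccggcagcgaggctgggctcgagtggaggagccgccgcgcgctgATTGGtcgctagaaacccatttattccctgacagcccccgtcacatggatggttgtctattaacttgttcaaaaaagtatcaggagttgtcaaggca
CCAAT was found in all 4 of these windows, SOX2 included, and in 34.6% of the 35116 windows in the table. It stood 2 times each in 3 of these windows and 1 time in that of SOX2, while 10.8% of all windows held it 2 or more times. Of the other ELAVL2 windows 2 of 5 held it, and these 2 overlap and share 1 match. The second BEX5 window held 1 of the matches of the first, since those windows overlap as well. TATAAA was found in 1 ELAVL2 window and in 11.5% of all windows. TGACGTCA, the cyclic AMP response element, was in none of the members' windows and in 1.85% of all. RE1 is the element through which the repressor REST silences many neuronal genes. Its left part TTCAGCACC was in none of the members' windows and in 0.376% of all, and its right part GGACAG was in 3 ELAVL2 windows and that of SYT1, and in 20.5% of all. Of the 3 ELAVL2 windows with GGACAG, 2 overlap and share the same match. All motifs were searched on both strands, and a match or its absence describes only these letters in these windows.

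The ELAVL2 and SYT1 windows hold a like stretch of 19 bases that begins at a CCAAT, 178 bases before the start site in ELAVL2 and 106 bases before it in SYT1. It was picked after the sequences had been seen, as the longest run of bases common to any pair of the windows printed. Capitals mark the bases that are the same in both.
ELAVL2: CCAATCAGGATcCTGGGGC
SYT1: CCAATCAGGATgCTGGGGC
The stretches are identical at 18 of 19 positions, and their first 11 bases form the common run. On either strand that run was found in 30 of the 35116 windows, or 0.0854%, from 28 genes. With at most 1 mismatch, the 19 bases were found in 3 windows, those of ELAVL2, SYT1 and the long non-coding RNA gene LOC105375992. The last of these overlaps the ELAVL2 window on the other strand, so it is not a separate occurrence.

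Paralogs of the 6 genes were tested together with all genes. In siRNA cells against mock cells not induced, limma called 28.0% of all genes, 13.5% higher and 14.5% lower. All 4 other BEX genes rose. BEX2 had 10.08 and 10.06 in siRNA cells, 9.60 and 9.66 in induced mock cells, and 9.50 and 9.56 in mock cells not induced, and rose by 0.54 (SE 0.06, limma adjusted p = 0.00036). Its siRNA arrays lay above all mock arrays and close together. BEX4 rose by 0.34 (SE 0.08, limma adjusted p = 0.0114), BEX3 rose by 0.26 (SE 0.05, limma adjusted p = 0.00649) and BEX1 rose by 0.25 (SE 0.05, limma adjusted p = 0.00724). The calls of BEX1, BEX3 and BEX4 were not kept under every alternative, while that of BEX2 was. For BEX4 the adjusted p was 0.0894 without siRNA replicate 1 and 0.0548 without siRNA replicate 2, and for BEX1 it was 0.0645 without siRNA replicate 2. Without the intensity trend in the variance model it was 0.0897 for BEX1 and 0.0931 for BEX3. BEX genes are alike in sequence, and whether the probe sets separate them was not tested.

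**Figure D3:**
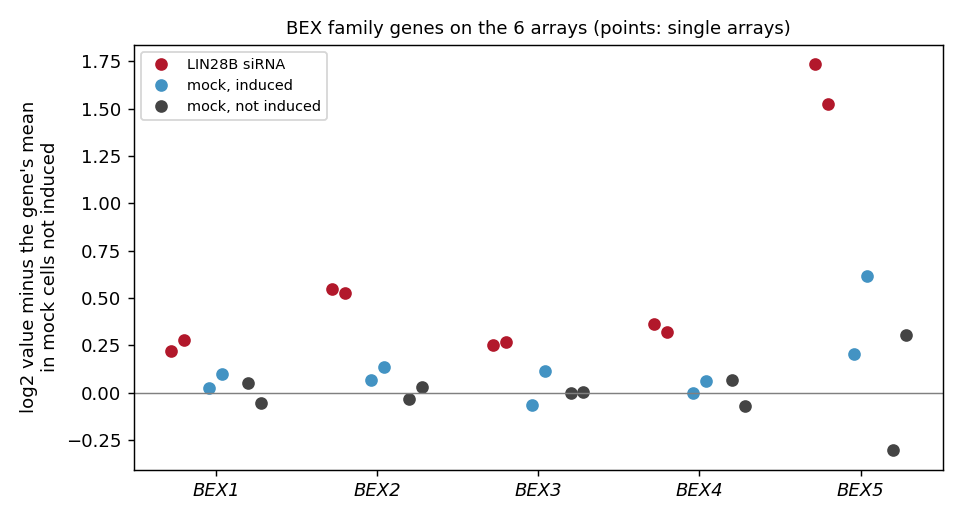
Log2 value on each array minus the gene's mean in mock cells not induced, for the 5 BEX genes, by group and replicate. The siRNA arrays of all 5 genes lie above their mock arrays, with group differences of 0.25 to 0.54 for BEX1 to BEX4 and 1.63 for BEX5.

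In the same comparison 28.0% of all genes were called, so calls among the paralogs of the other members are read as values only. ELAVL1, the widely expressed Hu protein, had a difference of -0.20 (limma adjusted p = 0.451), but -0.50 (adjusted p = 0.0229) without not-induced array 1. ELAVL3, a neuronal Hu protein like ELAVL2, had 0.01 (limma adjusted p = 0.983). Of 8 other synaptotagmins 1 passed: SYT11, which lacks calcium binding, had 6.17 and 6.33 in siRNA cells, 5.54 and 5.68 in induced mock cells, and 5.63 and 5.44 in mock cells not induced. It rose by 0.71 (SE 0.15, limma adjusted p = 0.00667), and its siRNA arrays lay above all mock arrays, as those of SYT1 did; without siRNA replicate 2 the adjusted p was 0.0576. SCG5, a chaperone of the prohormone convertase PCSK2, was above 5 only on the siRNA arrays and had 0.40 (limma adjusted p = 0.192), and the neurosecretory protein gene VGF had 0.03 (limma adjusted p = 0.952). Of 8 other SOX genes SOX8 fell by 0.68 (SE 0.22, limma adjusted p = 0.0436). It was above 5 on the 4 mock arrays and on neither siRNA array, so, like BEX5 in the other direction, it is in the table only through the group where it is high. That call was lost without siRNA replicate 1 (-0.40, limma adjusted p = 0.269), without not-induced array 2 (-0.53, adjusted p = 0.188) and without either induced array (adjusted p = 0.0592 and 0.0583), and it had 0.0573 without the intensity trend. SOX15 passed only without not-induced array 1 (0.69, limma adjusted p = 0.0455) and SOX4 only without not-induced array 2 (0.27, limma adjusted p = 0.0286).

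Beyond the families, 9 lists of neural genes were counted with the 6 members left out, and 200 of the 336 genes listed were in the table. In siRNA cells against mock cells not induced 34 rose and 18 fell, or 17.0% and 9.0%, against 13.5% and 14.5% of all genes. In all 26.0% of the list genes were called, near the 28.0% of all genes, and their median difference was 0.07, against 0.006 over all genes. Without siRNA replicate 1, 18 rose and 11 fell, and without siRNA replicate 2, 18 rose and 15 fell. The calls over all genes shrank as well in these fits, to 14.4% and 17.0%. With induction limma called none of the 200. These lists and the marker lists below were chosen with earlier results of these data known, so their shares are a description.

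Among genes of regulated secretion, the roles of CHGB and SYT1, most calls were upward, but the share called was below that of all genes. It was 21.9% for synaptic vesicle and fusion genes and 18.8% for secretory granule and neuroendocrine genes, against 28.0% of all genes. Higher calls made up 21.9% and 12.5% of these lists, against 13.5% of all genes. Of 32 other synaptic vesicle and fusion genes 7 rose, 0 fell and 25 did not pass (median 0.03). Without siRNA replicate 1 the number that rose was 3, and without siRNA replicate 2 it was 4, with 1 that fell. The largest differences beside SYT11 were in the vesicle protein gene SYNGR3 (0.71), in SYPL1, a broadly expressed relative of synaptophysin (0.70), and in the active zone gene RIMS2 (0.68), which reached 5 on at least 2 arrays only through the siRNA arrays. SYNGR3 had 6.52 and 6.74 in siRNA cells, 6.03 and 6.15 in induced mock cells, and 5.89 and 5.96 in mock cells not induced, so the groups did not overlap. RIMS2 lost its call without siRNA replicate 1 (limma adjusted p = 0.102) and without not-induced array 1 (adjusted p = 0.0631). Of 16 other secretory granule and neuroendocrine genes 2 rose and 1 fell (median 0.05), with 1 and 1 without siRNA replicate 1, 1 and 1 without siRNA replicate 2, and 3 and 2 without either array of cells not induced. INSM1, a transcription factor of neuroendocrine differentiation, had 8.01 and 8.09 in siRNA cells, 7.37 and 7.33 in induced mock cells, and 7.27 and 7.50 in mock cells not induced, and rose by 0.66 (SE 0.11, limma adjusted p = 0.00195). The neuropeptide gene TAC1 rose by 0.57, a call lost without siRNA replicate 1 or 2 (limma adjusted p = 0.0892 and 0.0711), and UCHL1, a ubiquitin hydrolase used as a neuroendocrine marker, fell by 0.46 (SE 0.08, limma adjusted p = 0.00264). Of 12 adrenal and sympathoadrenal genes 0 passed (median 0.05). The exceptions on leaving out an array were FDX1 without siRNA replicate 1 (0.68, limma adjusted p = 0.033) and TFAP2A without not-induced array 1 (-0.32, adjusted p = 0.0437).

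Adhesion and cytoskeleton genes were called in both directions, 36.7% and 33.3% of those tested, against 28.0% of all genes. Of 30 adhesion and guidance genes beside NCAM1 6 rose and 5 fell (median 0.10), with 3 and 2 without siRNA replicate 1 and 3 and 3 without siRNA replicate 2. The guidance receptor gene ROBO2 had 7.69 and 7.10 in siRNA cells, 6.17 and 6.13 in induced mock cells, and 6.37 and 6.27 in mock cells not induced, and rose by 1.08 (SE 0.18, limma adjusted p = 0.00193). CADM1, of the immunoglobulin superfamily like NCAM1, rose by 0.87 (SE 0.07, limma adjusted p = 6.22e-05). NLGN1, a postsynaptic adhesion gene, fell by 0.94, with limma adjusted p = 0.0514 without siRNA replicate 1, and the teneurin gene TENM4 fell by 0.85. Neither was above 5 on a siRNA array, so these 2 of the 5 that fell are in the table only through the mock arrays. Of 27 neuronal cytoskeleton genes 3 rose and 6 fell (median -0.01), while 1 rose and 6 fell on leaving out any array but not-induced array 2, without which 4 rose. Neurofilament-related genes differed in direction: INA rose by 0.73 (SE 0.09, limma adjusted p = 0.000423), while NEFL fell by 0.59 (SE 0.05, limma adjusted p = 0.000113). NEFL had 9.92 and 9.97 in siRNA cells, 10.63 and 10.60 in induced mock cells, and 10.53 and 10.54 in mock cells not induced. ANK3, an anchor of axonal membrane proteins, fell by 0.66, and the membrane glycoprotein gene GPM6A fell by 0.64.

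Among regulators, the role of ELAVL2 and SOX2, the share called differed from list to list, against 28.0% of all genes. It was 15.0% for neuronal RNA-binding protein genes, 32.1% for SOX and neural progenitor regulators, and 10.0% for genes of REST and its corepressors. Of 20 other neuronal RNA-binding protein genes 3 rose and 0 fell (median 0.09), with 4 and 1 without not-induced array 2. CPEB1 and CPEB4, which bind cytoplasmic polyadenylation elements, rose by 0.77 and 0.44, and FXR1, a relative of FMR1, by 0.42. CPEB4 did not pass without siRNA replicate 2 (limma adjusted p = 0.185) or without not-induced array 1 (adjusted p = 0.0717). Of 28 other SOX and neural progenitor regulators 5 rose and 4 fell (median 0.08), with 1 and 2 without siRNA replicate 1 and 2 and 3 without siRNA replicate 2. Without not-induced array 2, 4 rose and 2 fell. HES4, a repressor of the hairy and enhancer of split family, fell by 1.16 (SE 0.08, limma adjusted p = 3.76e-05), and the homeobox gene MEIS2 rose by 0.69 (SE 0.07, limma adjusted p = 0.000177). ZIC5 rose by 0.69 but was above 5 only on the siRNA arrays, and lost its call without siRNA replicate 1 (limma adjusted p = 0.0787). Of 20 genes of REST and its corepressors 1 rose and 1 fell (median 0.05): ZNF217 rose by 0.58 (SE 0.10, limma adjusted p = 0.00206), and CDYL fell by 0.40. Without not-induced array 1, 3 rose and 2 fell, without not-induced array 2, 2 rose and 2 fell, and without either siRNA array 1 rose and 0 fell. The CDYL call was lost without either siRNA array (limma adjusted p = 0.205 and 0.0521) and without not-induced array 1 (adjusted p = 0.102), and the adjusted p was 0.0599 without the intensity trend.

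The list of BEX, TCEAL and ARMCX/GPRASP genes, which lie mostly together on the X chromosome, had 15 tested genes beside BEX5. Of these 7 rose and 1 fell (median 0.26), or 46.7% and 6.67%, against 13.5% and 14.5% of all genes. The 7 include the 4 BEX genes described above, so those calls are counted here again. This list too was chosen with earlier results of these data known, so its share is not separate evidence of a family shift. Without siRNA replicate 1, and also without siRNA replicate 2, 4 rose. Beside the BEX genes TCEAL1 rose by 0.44, ARMCX6 rose by 0.40 and ARMCX2 fell by 0.36. Without siRNA replicate 1 these 3 did not pass (limma adjusted p = 0.0892, 0.0587 and 0.278). TCEAL1 also did not pass without siRNA replicate 2 (limma adjusted p = 0.202) or not-induced array 2 (adjusted p = 0.166), and ARMCX2 without not-induced array 1 (adjusted p = 0.142) or induced replicate 1 (adjusted p = 0.0505). Without the intensity trend the limma adjusted p was 0.0997 for TCEAL1 and 0.0992 for ARMCX2.

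**Figure D4:**
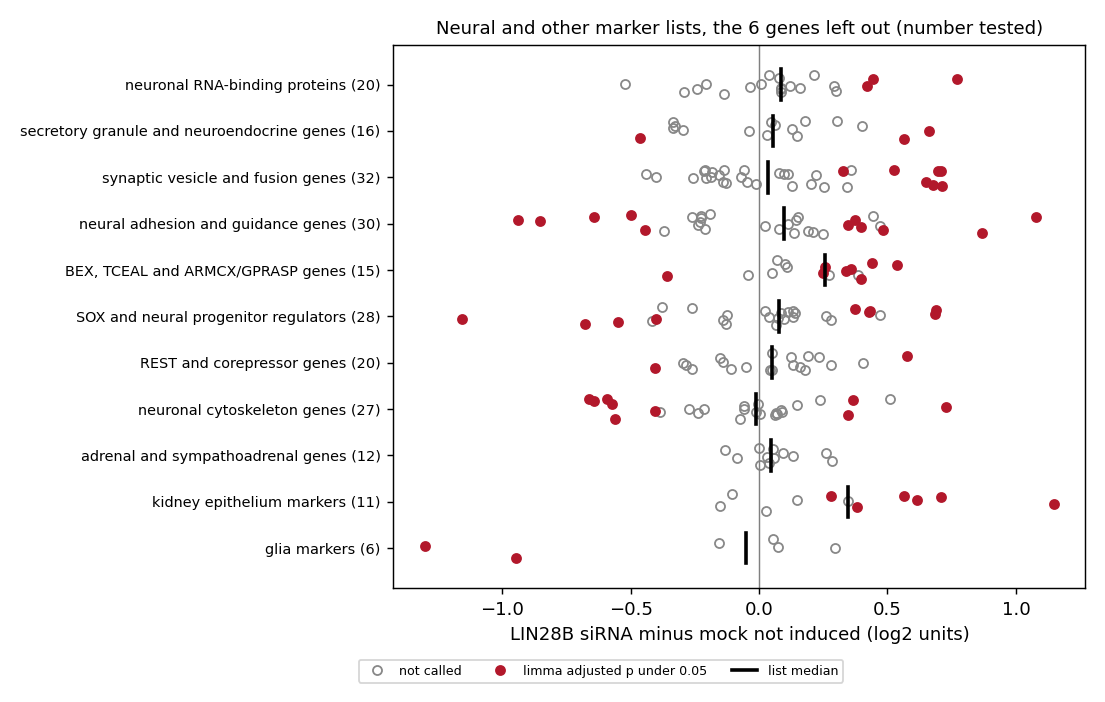
Difference between siRNA and mock cells not induced, in log2 units, for each gene of the lists, with genes called by limma set apart from the others and the list medians marked. Calls lie on both sides of 0 for adhesion, progenitor and cytoskeleton genes, and the median is 0.35 for kidney epithelium markers and -0.05 for glia markers.

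Markers of other cell types were read between the same groups, where 28.0% of all genes were called, 13.5% higher and 14.5% lower. The share called was 54.5% for kidney epithelium markers and 33.3% for glia markers. The fibroblast and blood lists had only 2 tested genes each. Of 11 tested kidney epithelium markers 6 rose, 0 fell and 5 did not pass (median 0.35), with 4 and 3 rising without siRNA replicate 1 and 2. SIX2, a transcription factor of nephron progenitors, rose by 1.15 (SE 0.16, limma adjusted p = 0.000958), the transcription factor gene LHX1 rose by 0.71, LRP2, which encodes the endocytic receptor megalin, rose by 0.61 and SALL1 rose by 0.56. LHX1 was above 5 only on the siRNA arrays and did not pass without siRNA replicate 1 or either array of the mock cells not induced (limma adjusted p = 0.191, 0.0511 and 0.0871), and LRP2 did not without siRNA replicate 2 (adjusted p = 0.0698). The summed level of the kidney markers on the linear scale was 3895 to 3945 in siRNA cells, 3193 to 3257 in induced mock cells and 3337 to 3375 in mock cells not induced. Such a sum is weighted to genes of high level: KRT18 lay at 9.94 to 10.03 over the 6 arrays, while SIX2 had 6.21 and 6.05 in siRNA cells. How the difference in this sum divides among the 11 markers was not tested. PAX2, CDH1 and CDH16 were not analysed here. Of 6 glia markers 0 rose and 2 fell: the glutamate transporter gene SLC1A3 fell by 1.30 (SE 0.11, limma adjusted p = 7.19e-05) and CNP fell by 0.95 (SE 0.10, limma adjusted p = 0.000166). Their summed level was 583 to 618 in siRNA cells, 1062 to 1072 in induced mock cells and 1080 to 1116 in mock cells not induced, and GFAP, S100B and AQP4 were not analysed here. The other 4 markers summed to 158 on both arrays of siRNA cells, 153 to 160 in induced mock cells and 136 to 162 in mock cells not induced, so the difference in the sum lies in SLC1A3 and CNP, and the list median was -0.05. Of 2 fibroblast markers VIM fell by 0.18, with limma adjusted p = 0.0962 without siRNA replicate 2, 0.0673 without not-induced array 2 and 0.171 without the intensity trend. The blood markers CD79A and HBB, with differences of 0.30 and 0.12, did not pass. The part of these markers in the values of the 6 members was not tested.

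The protein-coding genes next to the members in RefSeq gene order were read for position, and 6 of them could be tested. In the same comparison 28.0% of all genes were called, so a few calls among so few neighbours are read as values only. Whether position bears on them was not tested. TTC12, beside NCAM1 on chromosome 11, had 5.82 and 6.24 in siRNA cells, 6.55 and 6.78 in induced mock cells, and 6.81 and 7.02 in mock cells not induced. It fell by 0.89 (SE 0.17, limma adjusted p = 0.0037), the same direction as NCAM1, and its groups did not overlap. TRMT6, beside CHGB on chromosome 20, rose by 0.38 (SE 0.10, limma adjusted p = 0.0191), but did not pass without either siRNA array (adjusted p = 0.0759 and 0.119) or not-induced array 2 (adjusted p = 0.072), and had 0.0541 without the intensity trend. SHLD1 beside CHGB had 0.29, PAWR beside SYT1 0.03, and DNAJC19 and ATP11B beside SOX2 0.13 and -0.42, and none of these passed. Those of ELAVL2 and BEX5 were not analysed here.

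The genes most alike in pattern were found from the root mean square difference between profiles over the 6 arrays, each centred on its own mean. The profiles share their arrays, so this describes these arrays only. For NCAM1 the nearest were DCAF12 and GCSH, at 0.028 and 0.040 log2 units. DCAF12 had 7.33 and 7.33 in siRNA cells, 8.40 and 8.49 in induced mock cells, and 8.41 and 8.44 in mock cells not induced, with the siRNA arrays below all mock arrays. For SOX2 they were SEMA6A and THRAP3, at 0.036 and 0.042, each with its siRNA arrays on either side of the mock arrays. Such closeness is common for a flat profile: 4966 genes lay within 0.2 of SOX2, against 862 for SYT1, 304 for NCAM1, 213 for CHGB, 53 for ELAVL2 and 1 for BEX5. For SYT1 the nearest were ATP8A2 and IL23A, at 0.065 and 0.066, and for CHGB they were WDR45 and SFN, at 0.082 and 0.087. ELAVL2 had ZIK1 and MT1F at 0.105 and 0.137. BEX5 had GPRC5A and RBP7 at 0.195 and 0.233, the largest distances among the 6.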

How the data were processed

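RNA of each sample (2 µg, per the labels' protocols) was hybridised to an Affymetrix HG-U133 Plus 2.0 array. Deposited values are log2 expression per probe set, made by the authors with affy and GCRMA per the submitters' processing notes. Versions, genome build and the rule that kept 13008 probe sets are not given in the sources used here, and the log base was inferred from what GCRMA returns. From the platform annotation, 11719 probe sets had 1 symbol, 609 several and 680 none. Symbols were updated through RefSeq, giving 11584 genes, and for 130 genes with several probe sets the one of highest mean was used. All 6 arrays entered a model of 3 groups in limma 3.58.1 under R 4.3.3 (lmFit, then eBayes with trend), with two-sided p-values adjusted by Benjamini-Hochberg over all genes and called under 0.05. A filter (above 4 on at least 2 arrays) removed 0 genes. The fit was tested on simulated data, and the number of arrays limits its precision.

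The members and lists were chosen with earlier results of these data known. Each list names up to 4 called genes of largest knockdown difference, or the 2 of highest mean where none was called. Family paralogs, RefSeq neighbours and the 2 most similar profiles per member are also named, the neighbours having been added after the data had been seen. Alternatives changed the scaling, filter, variance trend, arrays fitted, replicate block and probe-set rule.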

Additional observations from a re-analysis of the deposited data

How the results depend on the processing

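Over the alternatives run, the difference between siRNA cells and mock cells not induced kept its direction for 5 of the 6 genes, the exception being SOX2. Only a change of scaling, or leaving out a siRNA array or an array of mock cells not induced, could alter these differences. Leaving out each array in turn gave 1.17 to 1.39 for ELAVL2, 0.84 to 1.11 for CHGB, 0.55 to 0.94 for SYT1, -1.15 to -1.11 for NCAM1, 1.32 to 1.93 for BEX5 and -0.07 to 0.41 for SOX2. Centring arrays on their medians gave 1.31, 1.01, 0.77, -1.10, 1.66 and 0.20 in the same order. A filter of above 6 on at least 2 arrays removes SYT1 and BEX5, so neither has a value under it. Over all genes, leaving out each array in turn gave 1664 to 3143 calls for siRNA against mock not induced, 1702 to 3951 for siRNA against induced and 0 to 1 for induced against not induced, where the 1 call came without replicate 2 of the cells not induced. Of the 200 neural list genes 18 to 36 were called higher and 11 to 21 lower in siRNA cells. In these fits the lone array of a group is assumed to vary like the others, and the cause of the shifts was not tested. With the replicate number as a block 3422 genes were called for siRNA against mock not induced, 3491 for siRNA against induced and 0 for induced against not induced, and 34 neural list genes were higher and 24 lower. Deviations of same-numbered arrays correlated across genes at 0.18 between the mock groups and at -0.057 and 0.016 between siRNA and mock cells. Same-numbered mock arrays of the 2 groups correlated at 0.9935 and 0.9930 and differently numbered ones at 0.9920 and 0.9916. The 2 arrays of cells not induced correlated less with each other, at 0.9899, and the 2 induced arrays at 0.9937. The mock arrays thus hint at pairing by number, the siRNA arrays do not, and 2 pairs do not settle it. Of 1472 alternative values for single genes and lists, 105 changed their call or moved. Many of the others could not change, since the filter removed 0 genes and several settings leave a difference as it is. The share that changed is therefore no measure of stability. With 2 arrays a group, a missed call at a small difference says little.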
